A study of Mus musculus with 24 samples.

Results

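Translation efficiency (TE), the number of ribosome footprints that a coding sequence (CDS) carries relative to its mRNA, was ranked within unstressed control cells. The ranking holds the 10152 transcripts with a CPM (count scaled to a library total of 1000000) over 1 in each of 5 libraries, out of 10715 transcripts listed in both ctrl tables and 12759 listed in any table used. The value of a transcript is the log2 of its mean footprint CPM over its mean mRNA CPM, so 0 stands for equal shares of both pools and 1 for a doubled share of footprints.

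The cells were N2a (Neuro-2a), a mouse neuroblastoma line. The ctrl cells had been transfected with the empty Cas9 vector and selected with puromycin, and the KO cells carried the same vector with guides against Eif4e3, so that both are selected populations rather than clones and both went through selection. Vehicle means DMSO for 2 h, in place of the mTOR inhibitor Torin1 given to the other groups. All ribo-seq cells were also given cycloheximide shortly before lysis, which stops elongating ribosomes. The 5 libraries of ctrl vehicle cells were RNA-seq replicates 1, 2 and 3 and ribo-seq replicates 1 and 3, each replicate from another passage of the cells. Ribo-seq replicate 2 was not analysed here.

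Ribosomes cover a short stretch of mRNA that RNase I leaves intact, and sequencing these footprints counts the ribosomes on each CDS. Most mRNAs recruit ribosomes through the 5′ cap and the eIF4F complex, after which the small subunit scans the 5′ transcript leader (5′ TL) to a start codon. Upstream AUGs, stable structures that bind repressor proteins, and the bases around the start codon are known to set how often a main CDS is entered. Ferritin mRNAs carry the best known structure of this kind, the iron responsive element (IRE), a hairpin near the cap whose loop CAGUGN binds iron regulatory proteins when iron is scarce. The Atf4, Atf5, Ddit3 and Ppp1r15a mRNAs carry upstream reading frames (uORFs) that are known to keep the main CDS little translated in unstressed cells.

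The IREs of both ferritin mRNAs are shown because they mark the lowest members of the iron list, with the loop motif CAGTGN in capitals. They were read from the mouse genome GRCm38 along transcripts of GENCODE release M21.
Ftl1, chr7:45459780-45459809, minus strand: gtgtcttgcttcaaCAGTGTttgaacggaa
Fth1, chr19:9982730-9982759, plus strand: gtttcctgcttcaaCAGTGCttgaacggaa

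Upstream ATGs of 3 of the stress-response mRNAs are shown next, each with the upstream ATG in capitals and 6 bases on either side. The first and second Atf4 ATGs open reading frames that end inside the 5′ TL, and the third opens one that overlaps the main CDS. The stretch around the third spans an intron. Those of Ddit3 and Ppp1r15a all end inside the 5′ TL.
Atf4, 475 bases before the start codon, chr15:80255297-80255311, plus strand: tctctcATGgggcct
Atf4, 196 bases before, chr15:80255576-80255590, plus strand: gccaccATGgcgtat
Atf4, 97 bases before, chr15:80255675-80256210, plus strand: taagccATGgcgctc
Ddit3, 131 bases before, chr10:127290823-127290837, plus strand: tatatcATGttgaag
Ddit3, 122 bases before, chr10:127290832-127290846, plus strand: ttgaagATGagcggg
Ppp1r15a, 249 bases before, chr7:45526226-45526240, minus strand: tggacgATGttggcg
Ppp1r15a, 205 bases before, chr7:45526182-45526196, minus strand: gattacATGcgatat
Ppp1r15a, 104 bases before, chr7:45526081-45526095, minus strand: ggcgacATGaacccg

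Start codon contexts are shown for transcripts near both ends of the ranking, chosen after their values were seen so that each end holds purines and pyrimidines at the 3rd position before the ATG. They do not stand for the shares of each base, which are given below. That base, the ATG and the base after it are in capitals.
Pgrmc2, high, chr3:41082989-41083003, minus strand: cgggcaGtgATGGcg
Tmx4, high, chr2:134644000-134644014, minus strand: ggcgccAccATGAca
Spcs3, high, chr8:54529900-54529914, minus strand: gtcgccAcgATGAac
Hspa13, high, chr16:75766754-75766768, minus strand: gcgggaCtgATGGcc
Sptbn1, low, chr11:30197827-30197841, minus strand: ttgggcAtaATGGag
Mast2, low, chr4:116463910-116463924, minus strand: gacgcgGagATGAag
Anapc5, low, chr5:122821145-122821159, minus strand: ttcagcCcgATGAtg
Dgkz, low, chr2:91963441-91963455, minus strand: tagggcCggATGGag
2610507B11Rik, low, chr11:78261841-78261855, plus strand: cggaccTaaATGCct

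The RNA-seq libraries held 25994278, 22022367 and 20548964 counts on CDS and the ribo-seq libraries 4529186 (replicate 1) and 669392 (replicate 3). In ribo-seq replicate 3 a single footprint is 1.49 CPM, so the filter asked there for at least 1 footprint. The filter dropped 563 transcripts, 147 of them only for lack of footprints in that library. The lowest CPM of a kept transcript in any library was 1.02 and the highest lowest CPM of a dropped one was 0.999. Neuroblastoma markers summed to 3800 to 4257 mRNA CPM per RNA-seq library (13 of 15 listed), against 1.5 to 2.04 for fibroblast, 1.42 to 3.36 for macrophage, 3.35 to 3.72 for endothelial and 0.636 to 1.7 for Schwann and glia markers. Ret was among those not listed. Since the libraries are bulk, more ribosomes per mRNA and a larger fraction of mRNA in use cannot be told apart. P-values measure the spread between passages, and intervals on counts cover counting error only.

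Eif4e3, the gene targeted in the KO cells, had 18, 11.1 and 18.1 mRNA CPM and 20.3 and 16.4 footprint CPM in ctrl vehicle cells. The footprints of replicate 3 rest on 11 counts (95% exact Clopper-Pearson interval 8.2 to 29.4 CPM). Its log2 TE was 0.23 (adjusted p = 0.255 in edgeR), so it was not called different from the bulk. In KO vehicle replicate 1 it had 3.75 mRNA CPM and 2.58 footprint CPM, below each of the ctrl libraries.

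TE spread widely over the transcripts. The median log2 TE was -0.17 with an SD of 1.03, and the values ran from -4.95 to 8.02. The 95th percentile (1.48) lay 9.82-fold above the 5th (-1.81), and the middle part of the transcripts fell between -0.80 and 0.48 (quartiles). A log2 TE above 1 was reached by 1226 transcripts and one below -1 by 1908. Footprints were tested against mRNA with edgeR's quasi-likelihood test on the counts, scaled by TMM, which sets 0 near the bulk of the transcripts (median fitted log2 -0.05). At an adjusted p under 0.05, 48.9% of the transcripts differed, 2368 (23.3%) with higher and 2593 (25.5%) with lower TE. When the difference itself had to pass 1 on the log2 scale, 558 (5.5%) were higher and 544 (5.36%) lower. Scaling moved the balance of the calls: 47.7% of them were higher with TMM, 39% with library size alone and 52% with DESeq2 size factors. "Higher" and "lower" below mean these edgeR calls, and the log2 TE printed is the ratio of library CPMs.

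**Figure D1:**
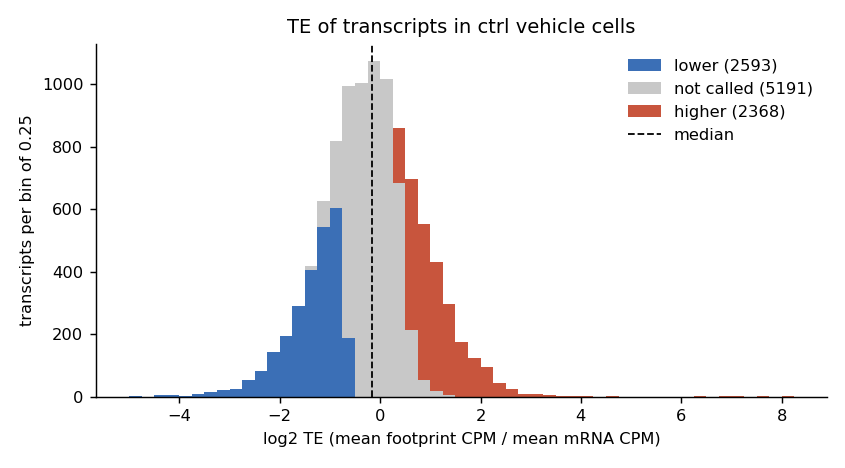
Histogram of log2 TE (x axis) in bins of 0.25, with the number of transcripts on the y axis, coloured by edgeR call: 2593 lower, 2368 higher and 5191 not called. The dashed line is the median, -0.17, and the few values beyond 4 form a thin right tail.

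The ranking was more alike between replicates where more footprints were counted. Computed from replicate 1 alone and from replicate 3 alone, log2 TE had r = 0.81 across the 10152 transcripts, as a description, with a median absolute difference of 0.376. For the 2842 transcripts with 1 to 9 footprints in replicate 3 r was 0.678 and for the 632 with 200 or more it was 0.943. Of the 1015 highest transcripts of one replicate, 644 (63.4%) were among the 1015 highest of the other, and of the 1015 lowest 606 (59.7%) were shared. Only 2 transcripts were at opposite ends. The KO vehicle libraries, which the ranking did not use, gave r = 0.931 over 10022 transcripts. Of the 1015 highest transcripts in the ranking, 998 were above the KO median and 1 below, and of the 1015 lowest, 990 were below it and 1 above. The others did not pass 1 CPM in each of the KO libraries and had no KO value.

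**Figure D2:**
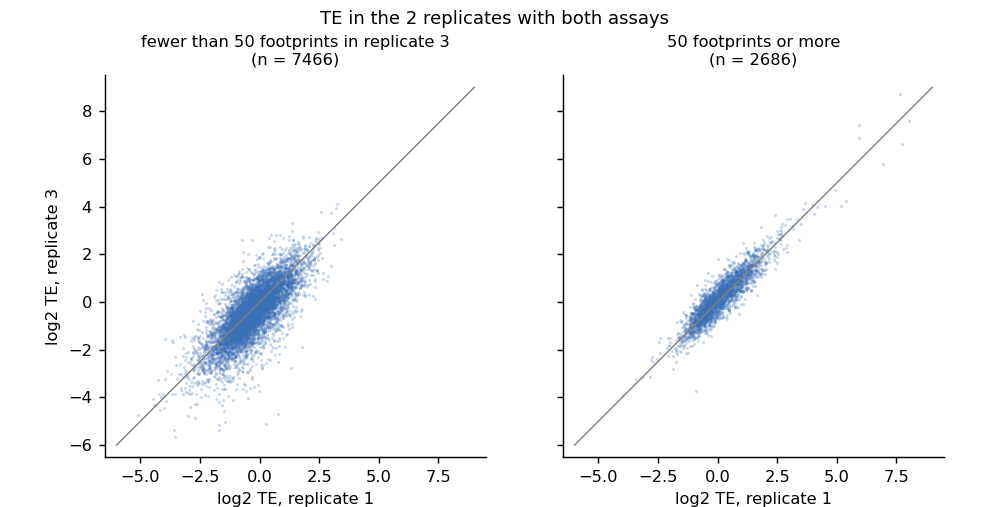
Log2 TE of each transcript in replicate 1 (x axis) against replicate 3 (y axis), split by the number of footprints in replicate 3, with the line of equality. The cloud narrows as footprints rise, with r from 0.678 at 1 to 9 footprints to 0.943 at 200 or more.

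The highest values belonged to transcripts with close copies elsewhere in the genome. Rpl21, a large ribosomal subunit protein, ranked 1st with 5.5, 5.36 and 3.02 mRNA CPM and 1113 and 1286 footprint CPM (log2 TE 8.02, 292-fold the median, adjusted p = 7.51e-21). The histones H1f2 (7.69), H2ax (7.24) and H2bu2 (6.37), the RNA-binding protein Hnrnpa3 (6.84), the chromatin protein Hmgb1 (6.48), the predicted gene Gm3550 (4.74), the glycolytic enzyme Gapdh (4.71) and Rpl29 (4.63) followed. Gapdh had 50.8, 66.6 and 60.4 mRNA CPM and 1543 and 1551 footprint CPM, far apart and with little spread within each assay.

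These transcripts share a property of the sequence. Copied 30-mers are the windows of 30 bases in a CDS found in the genome beyond their own place in an exon. Repeats inside the same gene count as copied too. Of the 10 highest transcripts, 9 had more than 5% of the windows copied or shared with another listed CDS. Among them were Rpl21 (100% copied), Gapdh (100%), Hmgb1 (98.4%) and Hnrnpa3 (94.6%). Of the 10 lowest, 2 did. The median log2 TE was -0.35 in the 6477 transcripts with over 0 to 5% of the windows copied, 0.26 in the 368 with 50 to 80% and 0.78 in the 401 with 80 to 100%. The 1523 without a copied window had a median of 0.14. How reads of such sequences were divided between the assays was not tested, and values of multigene families are uncertain.

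Among the 7861 transcripts with at most 5% copied and at most 5% shared windows, called few-copy transcripts here and chosen after the values were seen, the median was -0.25, with 20% higher and 27.4% lower. The other 2256 annotated transcripts had a median of 0.12, with 34.8% higher and 19.1% lower. The few-copy transcript with the highest TE was Acta2, smooth muscle actin, with 7.19, 8.63 and 8.32 mRNA CPM and 161 and 136 footprint CPM (log2 TE 4.21). Its 4.5% copied windows were just inside the limit, and it has actin paralogs.

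The next few-copy transcripts encode proteins of several kinds. Pgrmc2, a membrane-bound haem chaperone, had 21.5, 16.4 and 20.5 mRNA CPM and 134 and 181 footprint CPM (log2 TE 3.02). Tmed5, a cargo receptor between ER and Golgi, had 13.6, 5.68 and 14.2 mRNA CPM and 83.7 and 88.1 footprint CPM (2.95). Spcs3, a subunit of the signal peptidase, had 24.5, 11.4 and 23.7 mRNA CPM and 151 and 145 footprint CPM (2.90). In each of them the footprints of both libraries stood above every RNA-seq library, and RNA-seq replicate 2 was the lowest of the mRNA values. Without that library Tmed5 came to 2.63 and Spcs3 to 2.62, and both calls held.

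Also in this set were Tmx4 (2.93), a thioredoxin-like membrane protein of the ER, Hspa13 (2.66), a microsomal Hsp70 relative, and Slc7a11 (2.72), the cystine transporter. Purb (3.31) binds single-stranded DNA and RNA, and Marcks (3.09) is an actin-binding substrate of protein kinase C. Tmem263 (2.69) is a small membrane protein. All of them were called without any one library, and their log2 TE in KO vehicle cells lay between 2.16 (Slc7a11) and 3.05 (Tmed5), with Acta2 at 4.63.

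At the low end, Ftl1, the ferritin light chain, had the lowest TE among transcripts with at least 20 counts in each library. It had 1694, 1915 and 1472 mRNA CPM and 109 and 98.6 footprint CPM, so the groups were far from overlapping (log2 TE -4.03, 14.5-fold below the median, adjusted p = 2.66e-13). Ftl1 has close copies (88.7% copied windows).

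The other low transcripts encode proteins of several kinds. Flna, the actin cross-linker filamin A, had 672, 745 and 1023 mRNA CPM and 77.7 and 115 footprint CPM (log2 TE -3.08). Sptbn1, a spectrin, had 508, 386 and 706 mRNA CPM and 47 and 74.7 footprint CPM (-3.13). Mast2, a microtubule-associated kinase, had 216, 262 and 257 mRNA CPM and 24.7 and 31.4 footprint CPM (-3.13). Their footprints lay below every RNA-seq library. Further low values were Zfpm1 (-3.16), a GATA cofactor, Anapc5 (-3.07), a subunit of the anaphase-promoting complex, the mitochondrial carrier Slc25a39 (-3.06), 2610507B11Rik (-2.88), the diacylglycerol kinase Dgkz (-2.73) and, among few-copy transcripts, the scaffold Iqgap1 (-2.70). These kept their calls without any one library, though Iqgap1 came to -3.38 without ribo-seq replicate 3.

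Dhx8 and Nbr1 also ranked among the lowest, but on a single library. Dhx8, an RNA helicase of splicing, had 135, 142 and 1156 mRNA CPM and 62 and 67.2 footprint CPM. Nbr1, an autophagy receptor, had 105, 97.5 and 1043 mRNA CPM and 55.6 and 77.7 footprint CPM. Without RNA-seq replicate 3 their log2 TE went from -2.89 to -1.10 and from -2.64 to -0.60, and Nbr1 was no longer called (adjusted p = 0.0791). In KO vehicle cells they had -1.29 and -0.92. Among transcripts with over 5 CPM in that library or in the mean of the other 2, replicate 3 held 7 more than 4-fold above the mean of the other RNA-seq libraries, all within chr11:101448407-101767358 (GRCm38), and the other libraries held 1 each. The most extreme of the 7, Tmem106a, had 5.66, 6.36 and 309 mRNA CPM, and its log2 TE was -3.30 with that library and 0.85 without it. The 5 others were not named by the ranking.

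The transcripts with the most footprints were not those with the highest TE. The elongation factor Eef1a1 led with 10326 and 8815 footprint CPM against 8122, 8629 and 7153 mRNA CPM (log2 TE 0.26, adjusted p = 0.189). Ppia, the peptidyl-prolyl isomerase cyclophilin A, had 7192 and 7871 footprint CPM against 1165, 1357 and 1248 mRNA CPM (2.58). Hsp90ab1 (-0.36) and Atp5b (-0.24) were not called, with adjusted p of 0.439 and 0.694. Actb was called higher at 0.48 (adjusted p = 0.0311), a call that was lost without RNA-seq replicate 1 or ribo-seq replicate 1.

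Of the gene lists, ER chaperones and folding enzymes had the highest median among few-copy members. These proteins fold and oxidise secretory and membrane proteins. Of 19 ranked members 18 were higher and 0 lower, with a median log2 TE of 1.02 against -0.17 for all transcripts and 23.3% higher among them. Canx, the lectin chaperone calnexin, had 925, 657 and 871 mRNA CPM and 2216 and 2722 footprint CPM (log2 TE 1.59, adjusted p = 9.14e-08). Sdf2l1, a component of ER chaperone complexes, had 45.5, 45.1 and 47.2 mRNA CPM and 156 and 108 footprint CPM (1.52). Footprints exceeded mRNA in each library of both, and the ER Hsp70 Hspa5 (1.07), the lectin Calr (1.15), the Hsp90 of the ER, Hsp90b1 (0.89), and the disulphide isomerases Pdia3 (0.99), Pdia4 (1.37) and P4hb (0.79) were also higher.

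The lowest called members with enough counts were Hyou1 (0.55) and Creld2 (0.50), and both calls were lost without RNA-seq replicate 1. Hyou1 also lost it without ribo-seq replicate 3 and Creld2 without ribo-seq replicate 1. Sil1, the nucleotide exchange factor of Hspa5, was not called (-0.25, adjusted p = 0.984). In all, 16 to 18 members were higher when any one library was left out, and the 16 few-copy members had a median of 1.01 with 15 higher. Together the ranked members took 0.759%, 0.726% and 0.719% of the mRNA counts and 1.41% and 1.63% of the footprints, a ratio of 2.07 (two-sided exact permutation p = 0.1, the smallest that 3 against 2 libraries allow). The list was chosen with earlier results of these data known, so this p is no independent support.

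Splicing and RNA-packaging proteins were high too, with more copies. Of 20 hnRNP proteins, which bind nascent transcripts, 16 were higher and 1 lower (median 0.68), and without ribo-seq replicate 3 the number higher was 9. With all libraries the shares were 80% and 5%, against 23.3% and 25.5% of all transcripts. Hnrnpf had 147, 123 and 130 mRNA CPM and 685 and 865 footprint CPM (log2 TE 2.54), with 98.4% copied windows. Hnrnpul1 (-0.64, adjusted p = 0.0343) was the lower one, and Hnrnpul2 had 0.01 (adjusted p = 0.692). Every member but Hnrnpa0 had the larger log2 TE in replicate 3, such as Hnrnpa2b1 with 1.77 against 0.46 in replicate 1, so the group was further from the bulk in the shallower library. Among 8 few-copy members 6 were higher and 0 lower (median 0.59). Hnrnpul1 lost its call without RNA-seq replicate 1, RNA-seq replicate 3 or ribo-seq replicate 1.

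Of 12 SR proteins, which define exons for splicing, 8 were higher and 0 lower (median 0.86). The share higher was 66.7%, against 23.3% of all transcripts. Srsf10 had 52.3, 29.8 and 44.7 mRNA CPM and 168 and 163 footprint CPM (log2 TE 1.97), and Tra2b had 1.55. Srsf6 (-0.12) and Srsf4 (-0.15) were not called. Among the 7 few-copy members the median was 0.10, with 3 higher.

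Histones gave the widest gap between the assays. Of 52 replication-dependent histone transcripts listed, whose mRNAs mostly end in a stem-loop instead of a poly(A) tail, only H1f2 and H2bu2 passed the filter in every library. Both were higher. H1f2 had 1041 and 881 footprint CPM and H2bu2 633 and 326, against a mean of 4.64 and 5.78 mRNA CPM. All 52 listed transcripts, ranked or not, made up 0.00212%, 0.00218% and 0.00216% of the mRNA counts and 3.53% and 2.69% of the footprints, so most of these footprints fell on unranked histones. The filter asks for mRNA counts as well as footprints, so the others are not ranked. The RNA-seq kit named in the labels is for mRNA, and its part in these values was not tested.

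Of 10 replication-independent histones, whose mRNAs are polyadenylated, 6 were higher and 0 lower (median 0.54). The share higher was 60%, against 23.3% of all transcripts. H2aj had 17.6, 17 and 19.2 mRNA CPM and 314 and 303 footprint CPM (log2 TE 4.11). The linker histone H1f0 (-0.37) and the variant Macroh2a1 (-0.42) were not called, with adjusted p of 0.344 and 0.207. Among the 5 few-copy members the median was -0.22, with 1 higher.

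**Figure D3:**
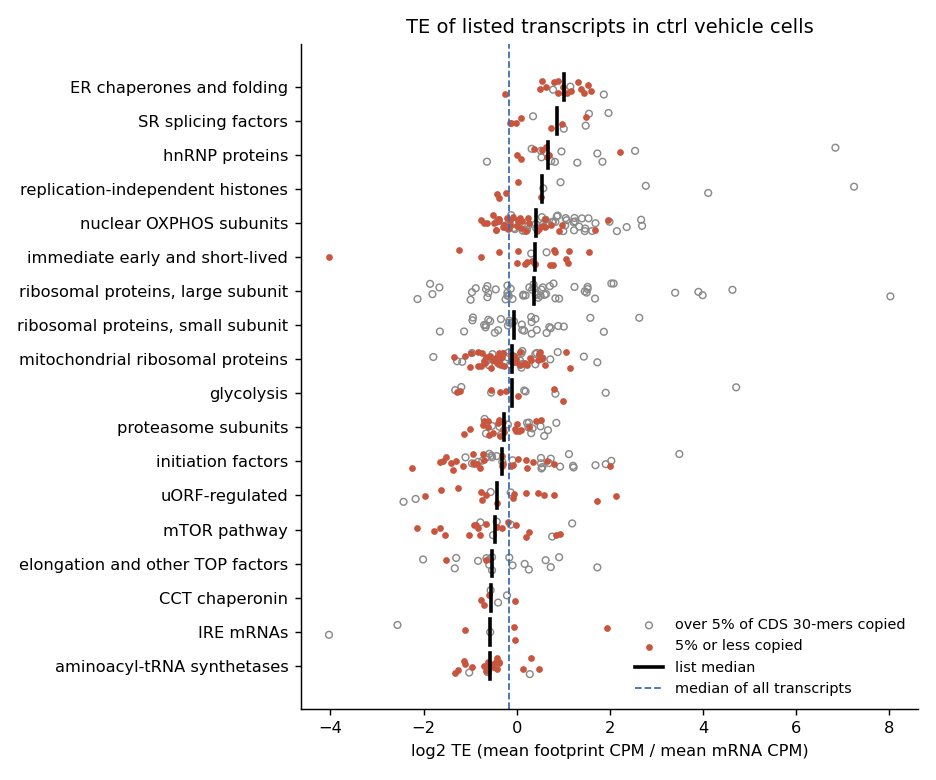
Log2 TE (x axis) of each ranked member of the gene lists (y axis), with filled points for transcripts with few copied windows, open points for the others, a black bar at the list median and a dashed line at the median of all transcripts (-0.17). ER chaperones sit to the right at a median of 1.02 with mostly filled points, and aminoacyl-tRNA synthetases sit to the left at -0.58.

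The machinery of translation itself was spread over both sides of the bulk. Of 51 large subunit ribosomal proteins 26 were higher (51%) and 8 lower (15.7%), with a median of 0.37. Of 33 small subunit ones 10 were higher (30.3%) and 6 lower (18.2%), with a median of -0.06. All transcripts had 23.3% and 25.5%. The median CDS of the 2 lists was 471 and 441 nt, and 52.5% of all annotated transcripts with a CDS under 500 nt were higher. Rps2 had 270, 262 and 300 mRNA CPM and 1979 and 1457 footprint CPM (log2 TE 2.63), and Rps27a, a fusion of ubiquitin and a ribosomal protein, had 1.87. At the other end Rpl13a had -1.86, Rps27 -1.65 and Rps18 -1.13. None of the ranked ribosomal protein transcripts was a few-copy transcript, so each single value is uncertain. Without ribo-seq replicate 1, 17 large subunit proteins were higher, and without ribo-seq replicate 3, 3 small subunit proteins were lower. Summed over both subunits, all listed members, ranked or not, made up 8.36%, 9.26% and 7.15% of the mRNA counts and 9.49% and 8.18% of the footprints, which overlapped (ratio 1.07, exact permutation p = 0.5).

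Other mRNAs of the TOP class start with a pyrimidine run and answer to mTOR. Of 19 elongation and other TOP factors 4 were higher and 7 lower (median -0.53), or 21.1% and 36.8% against 23.3% and 25.5% of all transcripts. Pabpc1, the poly(A)-binding protein, had 1758, 1505 and 1511 mRNA CPM and 322 and 469 footprint CPM (log2 TE -2.01). Eef2, which moves the ribosome along the mRNA, had -1.30. The higher members with the largest values, Hnrnpa1 (1.73) and the nucleolar chaperone Npm1 (0.91), had 90% and 85.9% copied windows. Without RNA-seq replicate 2 the list had 6 higher and 5 lower, and without ribo-seq replicate 1 it had 4 of each.

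Initiation factors bring the ribosome to the start codon. Of 53 ranked, 17 were higher and 19 lower (median -0.31, range -2.24 to 3.49). That is 32.1% and 35.8%, against 23.3% and 25.5% of all transcripts. By complex, a grouping made after the values were seen and not tested, the scaffold eIF3, which holds the small subunit, had 9 of 14 subunits lower and 3 higher (median -0.77), with Eif3f at 560, 752 and 549 mRNA CPM and 277 and 160 footprint CPM (log2 TE -1.51). The eIF2B subunits, which reload eIF2 with GTP, had 3 of 5 lower (median -0.72), led by Eif2b5 at -1.58, and both eIF4G scaffolds were lower, Eif4g1 at -1.36 and Eif4g3 at -1.41. The 3 subunits of eIF2, which brings the initiator tRNA, were all higher (0.73 to 1.22), and so was the cap-binding protein Eif4e (1.21), all 4 with over 50% copied windows and so with uncertain values. Eif4enif1, a transporter of eIF4E, had -1.65. The highest values, Eif4a3l1 (3.49) and Eif3j2 (2.03), belonged to genes with near-identical copies, and among the 27 few-copy members 15 were lower and 3 higher (median -0.78).

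Aminoacyl-tRNA synthetases, which charge tRNAs, were mostly low. Of 23 ranked with their cofactors, 10 were lower and 1 higher (median -0.58), or 43.5% and 4.35% against 25.5% and 23.3% of all transcripts. From 6 to 9 were lower when a library was left out (6 without ribo-seq replicate 1). Vars, for valine, had 899, 1287 and 1217 mRNA CPM and 389 and 511 footprint CPM (log2 TE -1.33, adjusted p = 4.52e-05). Qars, for glutamine, had 220, 241 and 211 mRNA CPM and 96.9 and 89.6 footprint CPM (-1.26). In both, each footprint library lay below each RNA-seq library. Eef1e1, a scaffold of the synthetase complex, was the higher one (0.48), a call lost without RNA-seq replicate 3 or ribo-seq replicate 1, and Dars had 0.31 (adjusted p = 0.0784). As a group they took 1.43%, 1.55% and 1.43% of the mRNA counts and 0.908% and 1.06% of the footprints (ratio 0.669, exact permutation p = 0.1). This list too was chosen with earlier results known, so the p is no independent support.

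The mTOR pathway, the target of the drug used in the study, held 9 lower and 4 higher of 24 ranked members (median -0.47). That is 37.5% and 16.7%, against 25.5% and 23.3% of all transcripts. Akt1, the kinase upstream of mTORC1, had 262, 276 and 266 mRNA CPM and 54.1 and 67.2 footprint CPM (log2 TE -2.14). Tsc2, which restrains mTORC1, had 118, 157 and 156 mRNA CPM and 40.4 and 43.3 footprint CPM (-1.78). The higher members were Lamtor3 (0.76), Lamtor4 (0.93) and Lamtor5 (1.19), small proteins that anchor mTORC1 to lysosomes, and the GTPase Rraga (0.85). Mtor itself had -0.78 (adjusted p = 0.0239). Without ribo-seq replicate 1 the list had 5 lower and 3 higher.

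**Figure D4:**
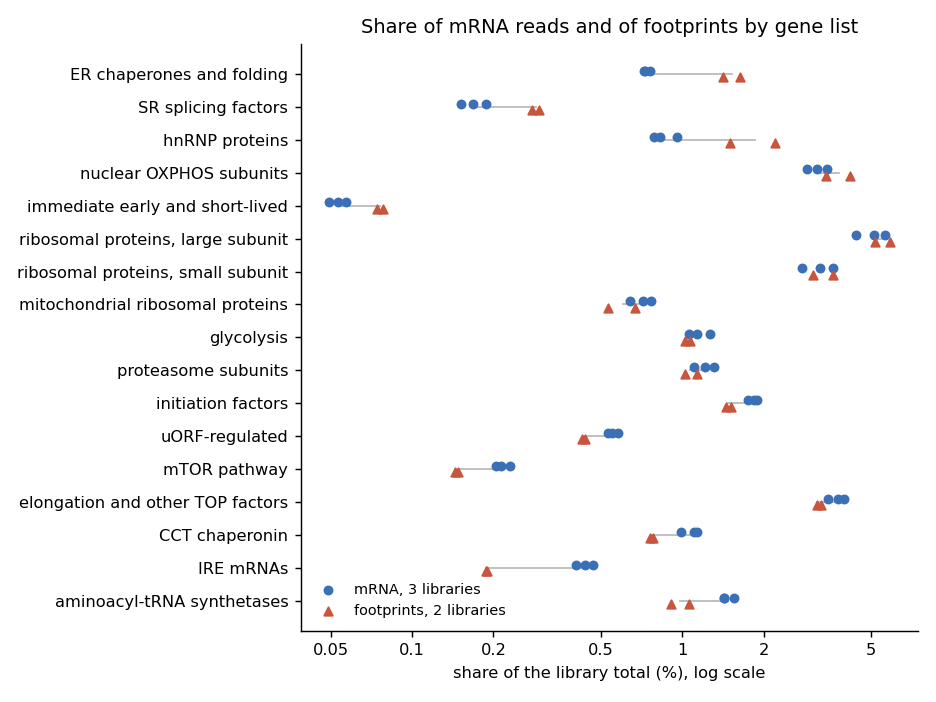
Share of each library's counts taken by the listed members of each list, ranked or not (x axis, percent, log scale), with circles for the 3 RNA-seq libraries and triangles for the 2 ribo-seq libraries. For ER chaperones the footprint shares (1.41 and 1.63%) lie to the right of the mRNA shares (0.719 to 0.759%), and for IRE mRNAs (0.187 and 0.189%) to the left of them (0.404 to 0.469%).

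The iron list, 7 ranked members with 3 lower and 1 higher (median -0.57), was lowest at the ferritins. Its calls were 42.9% and 14.3%, against 25.5% and 23.3% of all transcripts. Ferritin heavy chain Fth1 had 1087, 1201 and 928 mRNA CPM and 188 and 175 footprint CPM (log2 TE -2.56, adjusted p = 5.70e-10). With Ftl1 at -4.03, both ferritins, whose IRE lies in the 5′ TL as printed above, had footprints far below mRNA in each library. Tfrc, the transferrin receptor, whose elements lie in the 3′ UTR, had 192, 110 and 206 mRNA CPM and 647 and 653 footprint CPM (1.94, adjusted p = 3.65e-09). Elsewhere in the list, Cdc42bpa was lower (-1.10), and Slc11a2 (-0.06) and Cdc14a (-0.04) were not called. A motif of C, any 5 bases and CAGTG on the transcript strand, part of the IRE consensus, stood in 7.84% of all 5′ TLs (793 transcripts, median -0.22 against -0.16 for the rest), and 93 of them were among the 1015 lowest.

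The uORF list held values on both sides of the bulk. Of 19 ranked members 7 were lower and 5 higher (median -0.43), or 36.8% and 26.3% against 25.5% and 23.3% of all transcripts. Over the 15 few-copy members, of which 5 were lower and 5 higher, the median was -0.08, against -0.25 for all few-copy transcripts. Atf4, the transcription factor of the integrated stress response, had 1644, 1625 and 1379 mRNA CPM and 397 and 397 footprint CPM (log2 TE -1.96, adjusted p = 6.10e-08). Ddit3 (CHOP), its partner in stress, had 99.8, 84.5 and 75.1 mRNA CPM and 24.7 and 31.4 footprint CPM (-1.62). For both, footprints stood below mRNA without overlap, and the KO vehicle values were close (-2.04 and -1.75).

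Ppp1r15a (GADD34), which directs the phosphatase of eIF2, had 101, 104 and 91.9 mRNA CPM and 8.17 and 28.4 footprint CPM (log2 TE -2.43). Its footprints differed between replicates beyond counting error (95% exact intervals 5.75 to 11.3 and 17.1 to 44.3 CPM), so that its value was -3.60 without ribo-seq replicate 3 and -1.80 without replicate 1. Slc35a4, with 18 ATGs in its 5′ TL, had 28, 34.8 and 33.8 mRNA CPM and 6.84 and 7.47 footprint CPM (-2.17). Atf5, the relative of Atf4, had -1.26. Trib3 (-0.77) and Ifrd1 (-0.74) were lower, but Trib3 lost its call without RNA-seq replicate 2 or ribo-seq replicate 3, and Ifrd1 without RNA-seq replicate 1 or either ribo-seq library.

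The higher members were the transcription factor Cebpb at 2.14, the arginine transporter Slc7a1 at 1.72, Ppp1r15b, the constitutive relative of Ppp1r15a, at 0.80, Cebpg at 0.58 and the ubiquitin hydrolase Uchl1 at 0.45. Cebpg lost its call without RNA-seq replicate 3 or ribo-seq replicate 1, and also with the replicate block, and Uchl1 without RNA-seq replicate 1, RNA-seq replicate 3 or ribo-seq replicate 1. Bace1 (0.20), Azin1 (-0.05), Mdm2 (-0.08), Amd1 (-0.13), Eprs (-0.43), Ibtk (-0.56) and Gadd45g (-0.65) were not called. The annotated 5′ TLs of Cebpb, Eprs, Gadd45g and Trib3 held 0 ATGs. Amd1 had no match in the annotation. Slc7a1 and Ppp1r15b had 1 and 3 of them, all with frames that ended inside the 5′ TL, as in Ddit3 and Ppp1r15a at the low end. Without RNA-seq replicate 3 or ribo-seq replicate 1 the list had 3 higher members.

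Polyamine synthesis is held down by frameshifting and uORFs in several of its mRNAs. Odc1, the first enzyme of the pathway, had 482, 498 and 479 mRNA CPM and 171 and 137 footprint CPM (log2 TE -1.66). Oaz1, the antizyme that degrades it and is made by frameshifting, had 608, 761 and 656 mRNA CPM and 289 and 181 footprint CPM (-1.52). Both were lower and both had over 80% copied windows. Srm (-0.96), lost without ribo-seq replicate 3, and Azin2 (-0.99), lost without RNA-seq replicate 2 or either ribo-seq library, were lower too. Sms (0.78) was higher, and Oaz2 (0.26), Paox (0.16), Azin1 and Amd1 were not called. Of the 9 ranked members 4 were lower and 1 higher, or 44.4% and 11.1% against 25.5% and 23.3% of all transcripts. Without ribo-seq replicate 3, 2 were lower.

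Subunits of oxidative phosphorylation encoded in the nucleus were higher in 42 of 83 cases and lower in 2 (median 0.41). That is 50.6% and 2.41%, against 23.3% and 25.5% of all transcripts. The median CDS of the list was 414 nt. Of all annotated transcripts with a CDS under 500 nt, 52.5% were higher (median 0.55). The part of CDS length in the values of the list was not tested. Complex IV and the ATP synthase led: 11 of 15 complex IV subunits (median 0.62) and 10 of 18 ATP synthase subunits (0.55) were higher, with 0 lower in either. Each of these groups had 5 few-copy members, against 19 of the 36 subunits of complex I. The median CDS was 261 nt in complex IV, 434 nt in the ATP synthase and 436 nt in complex I. Cox7c had 154, 120 and 97.8 mRNA CPM and 910 and 695 footprint CPM (log2 TE 2.69), and Atp5l had 108, 112 and 92.6 mRNA CPM and 707 and 623 footprint CPM (2.67). Both have processed copies (100% copied windows). Complex I had 14 of 36 higher and 1 lower (median 0.03). Complex III had 4 of 9 higher and 1 lower (0.08), and complex II 2 of 4 higher and 0 lower (0.47). The lower ones of the list, Uqcrc1 (-0.70) and Ndufv2 (-0.64), lost their calls without RNA-seq replicate 2 or ribo-seq replicate 3, and Ndufv2 also without RNA-seq replicate 1 or ribo-seq replicate 1. The 38 few-copy members had a median of -0.04 with 10 higher and 2 lower. Leaving out ribo-seq replicate 1 reduced the number higher to 27.

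Mitochondrial ribosomal proteins had 13 higher and 12 lower of 78 (median -0.11), or 16.7% and 15.4% against 23.3% and 25.5% of all transcripts. Without RNA-seq replicate 2 these counts were 18 and 6, without ribo-seq replicate 1 they were 4 and 12, and without ribo-seq replicate 3 they were 14 and 5. Mrps33 (1.73) and Mrps36 (1.44) were at the top, and Mrpl42 (-1.79) and Mrpl37 (-1.35) at the bottom. In the glycolytic list 5 of 16 were higher and 4 lower, or 31.2% and 25%, near the shares of all transcripts. Among its 8 few-copy members 2 were higher and 2 lower. After Gapdh came Pgam1 (1.91), also fully copied, and the lowest were Pfkl, a phosphofructokinase (-1.28), and Gpi1, the glucose phosphate isomerase (-1.32).

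The spread among members of complexes was compared per kilobase of CDS, and the lists were not limited to subunits present in equal numbers. The 14 subunits of the proteasome core had an SD of 0.49 in log2 mRNA CPM per kilobase and of 0.31 in log2 footprint CPM per kilobase. Over all 37 listed proteasome transcripts the order was the other way, with SDs of 1.21 and 1.30. That list included Psmb9, at a mean of 7.72 mRNA CPM, and the part of such members in the spread was not tested. The 78 mitochondrial ribosomal proteins had 0.80 and 0.78. The 7 ranked CCT chaperonin subunits had 0.40 and 0.34, and the 83 oxidative phosphorylation subunits 1.56 and 1.77. The 84 ribosomal proteins had 1.56 and 1.07, with no few-copy transcript among them and Rpl21 at a mean of 4.63 mRNA CPM. Over all annotated transcripts the SDs were 2.10 and 2.28. No test was run on these spreads. Of the 37 proteasome transcripts 6 were higher and 7 lower, or 16.2% and 18.9% against 23.3% and 25.5% of all transcripts. The counts were 11 and 2 without RNA-seq replicate 2, and 4 and 9 without RNA-seq replicate 3. They were 3 and 4 without ribo-seq replicate 1, and 5 and 1 without ribo-seq replicate 3. Members with enough counts ran from Psmb5 (0.85) and Psma3 (0.67) to Psmd3 (-1.13) and Psmc3 (-0.72). The call of Psmc3 was lost without RNA-seq replicate 2 or either ribo-seq library. Of the CCT subunits Tcp1 (-0.70) and Cct5 (-0.76) were lower and both calls were lost without RNA-seq replicate 2 or either ribo-seq library (Tcp1 also without RNA-seq replicate 1), while Cct8 (-0.04) and Cct3 (-0.21) were not called.

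TE differed between transcripts of different length. The median log2 TE was 0.55 for 876 transcripts with a CDS under 500 nt (52.5% higher, 7.99% lower) and -0.75 for 725 with 4000 nt or more (4.83% higher, 50.5% lower). Spearman's rho with CDS length was -0.353 across 10117 annotated transcripts, as a description, and -0.331 over few-copy transcripts. The rho depended on which libraries were paired, from -0.524 (RNA-seq replicate 3 with ribo-seq replicate 1) to -0.143 (RNA-seq replicate 2 with ribo-seq replicate 3). The excess of RNA-seq replicate 3 over the other RNA-seq libraries itself had rho = 0.543 with CDS length, that of replicate 2 -0.343 and that of replicate 1 -0.165.

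The 3′ UTR went the other way. Transcripts with a 3′ UTR under 300 nt had a median of -0.44 and those with 4000 nt or more 0.33 (rho 0.231, and 0.11 to 0.325 over the 6 pairs of libraries). The excess of RNA-seq replicate 2 had rho = -0.551 with 3′ UTR length. GC content of the CDS had rho = -0.271, and over the pairs of libraries it ran from -0.346 to -0.133. The excess of RNA-seq replicate 1 had rho = -0.714 with CDS GC, that of replicate 2 0.447 and that of replicate 3 0.126. The part of the RNA-seq libraries' own bias in these relations was not tested.

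Upstream ATGs went with lower TE at every length of the 5′ TL. The 5005 transcripts without an ATG in the 5′ TL had a median of -0.03 (28.5% higher, 19.3% lower), those with 1 had -0.20 and those with 2 had -0.46. With 3 or 4 ATGs it was -0.52, and with 5 or more -0.46. Within 5′ TLs under 100 nt the medians without and with an ATG were -0.06 and -0.21, from 100 to under 200 nt -0.04 and -0.31, from 200 to under 400 nt 0.05 and -0.36, and at 400 nt or more 0.14 and -0.42. In each of these length classes the transcripts with an ATG also had the longer median CDS. It was 1342 against 1197 nt in 5′ TLs under 100 nt, and 1668 against 1437 nt at 400 nt or more. The part of CDS length in these medians was not tested. Where at least 1 upstream frame overlapped the main CDS the median was -0.40, and where all ended in the 5′ TL it was -0.30. The rho of ATG number with TE was -0.189, between -0.227 and -0.118 over the pairs of libraries, and -0.086 over the 2681 transcripts with at least 50 counts in each library. For the length of the 5′ TL it was -0.109, and -0.0136 over those.

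Both ends of the ranking differed in the same features. Of the 1007 annotated transcripts in the highest 10% of the ranking, 37.8% had an upstream ATG, the median CDS was 894 nt and the median 3′ UTR 1801 nt. For the 1012 annotated transcripts in the lowest 10%, the values were 71.3%, 1962 nt and 696 nt. A purine at the 3rd base before the start codon, part of the Kozak context, was found in 90.9% of the highest and 81.4% of the lowest. Transcripts with A there had a median of -0.10, with G -0.20, with C -0.39 and with T -0.34. A 5′ end of C and 4 pyrimidines, the letters of a TOP motif, was annotated in 2.21% of the transcripts (224, median -0.20 against -0.17). It stood in only 8 of 84 ribosomal protein transcripts and 3 of 19 elongation and other TOP factors. The annotated 5′ ends thus missed most members of both lists, so these medians do not describe TOP mRNAs.

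**Figure D5:**
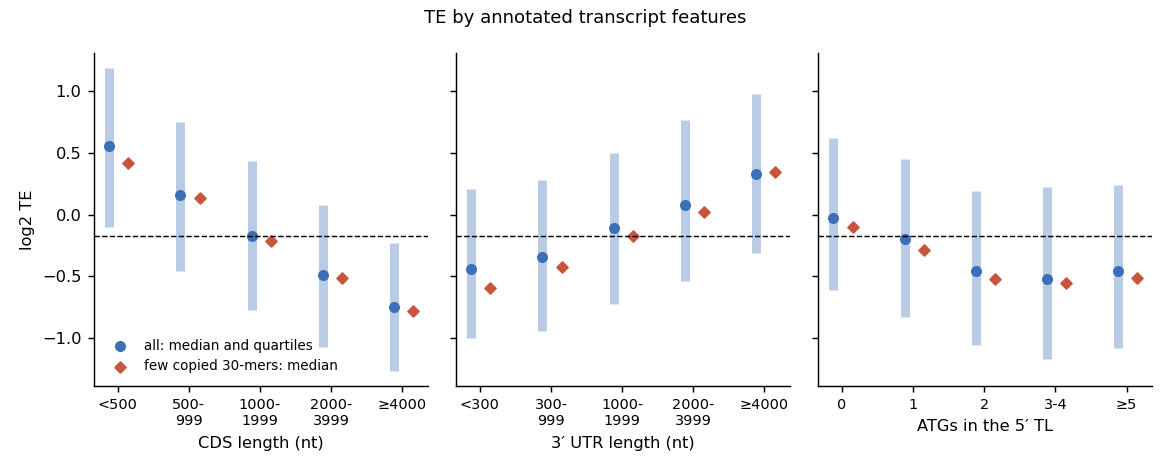
Median log2 TE (circles, with bars for the quartiles) by CDS length, 3′ UTR length and number of ATGs in the 5′ TL (x axes), with diamonds for few-copy transcripts. The medians fall from 0.55 to -0.75 with CDS length and rise from -0.44 to 0.33 with 3′ UTR length. With ATGs they fall from -0.03 at 0 to -0.46 at 2, and are -0.52 at 3 or 4 and -0.46 at 5 or more.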

How the data were processed

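RNA-seq and ribo-seq of N2a cells were used as the authors deposited them, as raw counts per CDS without normalization. Adapters were trimmed with cutadapt, and after alignment to mm10 (HISAT2) and removal of reads on rRNA, tRNA and pseudogenes as mm10 RepeatMasker defines them, the authors aligned reads to canonical transcripts by bowtie2. A footprint is a P-site predicted in the CDS, and an RNA-seq count is a read overlapping it. The tables also hold the log2 fold changes, p-values and TE values of the authors' own comparisons, which were not used. Samples were grouped by their labels. Members and gene lists were chosen with earlier results of these data known.

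CPM used each library's total. Footprints were tested against mRNA with edgeR 4.0.16 (R 4.3.3), by TMM and the quasi-likelihood F-test, with Benjamini-Hochberg adjustment over 10152 transcripts and a threshold of 0.05. Shares of a library were compared by a two-sided exact permutation test. Medians and correlations over transcripts are descriptions. The text names the 10 highest and 10 lowest transcripts called with at least 20 counts in each library, the 5 with most footprints, the 2 highest and 2 lowest members of each list with such counts, all members of the uORF, IRE and polyamine lists, and Eif4e3. Other members named, and the few-copy set, were chosen after their values were seen. Sequence features came from GENCODE M21 on GRCm38, matched by transcript identifier (10117 of 10152). No mitochondrially encoded transcript was listed.

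The labels give each replicate as another passage, so replicates 1 and 3 pair both assays. Checked on the values, the differences between replicates 1 and 3 had r = 0.0877 between assays, and 0.227 over 2686 transcripts with at least 50 footprints. The block was run as an alternative, as were other scalings, filters and tools (DESeq2 1.42.0, limma 3.58.1) and leaving out each library. Some members of the lists are counted in the lists but not reported here by name.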

Additional observations from a re-analysis of the deposited data

How the results depend on the processing

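Ribo-seq replicate 3 limits the precision for transcripts with few footprints, and with 2 ribo-seq libraries the test leans on the spread shared over all transcripts. Leaving out a library gave 1517 to 2574 higher and 1568 to 2459 lower calls, both fewest without ribo-seq replicate 1, where the lone ribo-seq library is assumed to vary like the RNA-seq ones. The replicate block gave 2430 and 2777 calls. With a least difference of 1 on the log2 scale the calls were 558 and 544, and with few-copy transcripts alone, an alternative added after seeing the data, 1556 were higher. DESeq2's Wald test gave 2331 and 2199, limma-voom 2243 and 2313, the edgeR exact test 2310 and 2499, at least 10 counts in each library 1809 and 2100, and no filter 2394 and 2736. TMM moved the median of all transcripts by 0.12 (log2) against library size. With library size alone, mitochondrial ribosomal proteins had 8 higher and 18 lower and proteasome subunits 4 and 11, and with DESeq2 size factors 17 and 11, and 8 and 4.

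List medians are given relative to the median of all transcripts, or of all few-copy transcripts (-0.25) where only those were used. Over few-copy transcripts they moved from -0.14 to -0.53 (initiation factors), 0.58 to 0.21 (oxidative phosphorylation), 1.03 to 0.35 (SR proteins), -0.07 to -0.27 (numbered Zfp zinc fingers), -0.30 to -0.47 (mTOR pathway), 0.71 to 0.03 (replication-independent histones), -0.26 to 0.17 (uORF list) and 0.42 to 0.73 (cytoskeleton). With the replicate block they moved from -0.36 to -0.21 (elongation and TOP factors), -0.11 to 0.07 (proteasome) and -0.26 to -0.11 (uORF list). With at least 10 counts they moved from 0.07 to -0.21 (glycolysis), -0.07 to 0.12 (Zfp) and 0.55 to 0.83 (immediate early genes). Without one library ER chaperones ran from 1.09 to 1.37 and elongation and TOP factors from -0.42 to -0.23. With at least 50 counts the rho of 5′ TL length was -0.0136 and that of upstream ATGs -0.086. Why these values moved was not tested. Of 149 named transcripts 122 were called, and 99 of these kept their call without any one library.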

Other observations

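Selenoproteins, which carry selenocysteine at a recoded UGA codon, lay on both sides of the bulk. Of 17 ranked, 5 were higher and 7 lower (median log2 TE -0.43). That is 29.4% and 41.2%, against 23.3% and 25.5% of all transcripts. Selenok, an ER membrane protein, had 32.3, 27.2 and 28.4 mRNA CPM and 118 and 140 footprint CPM (log2 TE 2.14), and Selenot, another ER protein, had 46.4, 22.8 and 44.9 mRNA CPM and 153 and 103 footprint CPM (1.75). Selenoi (1.75), Selenos (1.72) and Selenof (0.59) were the other higher ones. The glutathione peroxidase Gpx1 had 147, 149 and 133 mRNA CPM and 71.5 and 40.3 footprint CPM (-1.35), and Selenow (80.4 mean mRNA CPM and 20.1 mean footprint CPM), Selenom (-1.79), Sephs2 (-1.77), Selenoo (-1.31), Selenoh (-0.93) and Gpx4 (-0.83) were lower too. The call of Selenoh was lost without ribo-seq replicate 1.

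Immediate early and short-lived mRNAs, whose transcripts turn over fast, were higher in 9 of 21 cases and lower in 2 (median 0.39). The shares were 42.9% and 9.52%, against 23.3% and 25.5% of all transcripts. Without ribo-seq replicate 1, 5 were higher. Mcl1, an apoptosis inhibitor, had 43.2, 36.6 and 44.9 mRNA CPM and 117 and 127 footprint CPM (log2 TE 1.56), and Id1 had 1.06. Jun (0.32) and Jund (-0.37) were not called. Of 12 neuroblastoma markers 7 were higher (58.3%) and 1 lower (8.33%), with a median of 0.60. Chgb, a granin of secretory granules, had 1527, 1590 and 1468 mRNA CPM and 2329 and 4299 footprint CPM (1.12), and Isl1 had 1.10, a call lost without ribo-seq replicate 3. Gata2 was the lower one (-1.06), also lost without that library, and Hand2 had -0.52 (adjusted p = 0.0898 in edgeR).

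Of 22 actin, tubulin and other cytoskeletal transcripts 9 were higher and 3 lower, or 40.9% and 13.6% against 23.3% and 25.5% of all transcripts. Without ribo-seq replicate 1, 4 were higher. Cfl1, the actin-severing cofilin, had a log2 TE of 1.10 and Actg1 of 0.99, and Tubg1, the gamma-tubulin of centrosomes, had -1.20. Tmsb10 (-0.79) lost its call without ribo-seq replicate 1. Of 31 spindle and mitosis transcripts 4 were higher (12.9%) and 10 lower (32.3%), and 3 were lower without ribo-seq replicate 1. The separase Espl1 (-1.20) and the checkpoint kinase Bub1b (-1.19) were lowest, and the checkpoint protein Mad2l1 (0.97) highest, followed by Spc24 (0.62), lost without ribo-seq replicate 1.

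Of 256 numbered Zfp zinc finger transcripts 34 were higher and 63 lower (18 and 28 without ribo-seq replicate 1), or 13.3% and 24.6% against 23.3% and 25.5% of all transcripts. With at least 20 counts in each library they ran from Zfp871 (2.15) and Zfp84 (1.47) to Zfp106 (-0.91) and Zfp598 (-1.81), a sensor of collided ribosomes. Zfp871 had 1.33 without ribo-seq replicate 3 and 2.79 without RNA-seq replicate 3. Zfp106 lost its call without ribo-seq replicate 1. Of 280 predicted loci 82 were higher and 71 lower (43 lower without ribo-seq replicate 1), or 29.3% and 25.4%. Their extremes with enough counts were Gm3550 (4.74) and Gm45713 (-2.37), which shares 92.4% of its windows with another listed CDS.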
